A study of Mus musculus with 6 samples.

Results

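Transcript levels of 55 genes of the primary cilium and of hedgehog signalling were compared in mouse aortic valves of 2 ages, postnatal day 2 (PND2) and 4 months. The genes were picked by name, as known components of the cilium or the pathway, and all 55 were found among the 46983 genes with a deposited value. Both ages were represented by 3 libraries of wild type C57BL/6J mice, and each library pooled the valves of 5 to 6 animals. No treatment, transgene or further allele was named for either age. The spread between libraries is therefore a spread between pools of animals. Levels are RPKM, reads scaled by the exonic length of the gene and by the library total. This scale corrects neither for the make-up of a library nor for uneven coverage along a transcript. Comparisons between genes and between libraries are therefore approximate.

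The primary cilium is a single, non-motile antenna that most cells grow from the older centriole when they are not dividing. Cargo is carried up the axoneme by kinesin-2 with intraflagellar transport (IFT) complex B and returned by dynein-2 with complex A, the BBSome ferries membrane proteins, and the transition zone at the base controls what enters. In vertebrates hedgehog signals pass through this organelle. Ligand binding moves the receptor Patched1 out of the cilium, Smoothened enters, and the Gli transcription factors are processed as activators rather than repressors. Gli1 and Ptch1 are themselves induced by the pathway and are the usual readouts of its activity. In heart valves, cilia are carried by interstitial cells during development, and mutations of DZIP1, a basal body protein, have been linked to mitral valve prolapse.

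The transcripts of the cilium were present at both ages, and most of them differed little. Ages were compared with limma on log2(RPKM + 0.1), 2-sided, with Benjamini-Hochberg adjustment over the 25903 genes that reached 0.1 RPKM in at least 3 libraries. All 55 members passed that filter, and each had at least 75 reads in every library. At an adjusted p under 0.05, 17 of the 55 members differed between the ages (30.9%), against 35.8% of all genes tested. Of these, 13 were higher at 4 months (23.6%, against 14.7% of all genes) and 4 were lower (7.27%, against 21.1%). Only Gli1 and Evc also differed by more than 2-fold, both higher (3.64%, against 17.2% of all genes in either direction and 8.72% higher), and 0 members were lower by that much (against 8.47%). The share that passed in either direction was thus under that of all genes, while the share called higher was above it. The split between higher and lower was 13 to 4 among members and 3810 to 5463 among all genes. Of the 55 members, 54 are protein coding. In a fit of the 16315 protein-coding genes alone, 47.6% of them passed, 20.8% higher and 26.7% lower. Beside that 20.8%, the members' 23.6% stood out less than beside 14.7%. The members' calls in that fit were 3 higher and 1 lower for IFT complex B, 1 and 0 for complex A and 1 and 1 for the motors. They were 2 and 0 for the BBSome, 2 and 0 for the Arl GTPases, 2 and 1 for the transition zone and 3 and 1 for hedgehog. Shares given beside the lists below are of all genes tested, coding or not. The median log2 fold change, 4 months over PND2, was 0.21 for the members and -0.14 for all genes tested. The 2 ages did not overlap for 30 members (54.5%, against 50.0% of all genes), 23 of them higher at 4 months (41.8%, against 20.0%) and 7 lower (12.7%, against 29.9%).

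**Figure D1:**
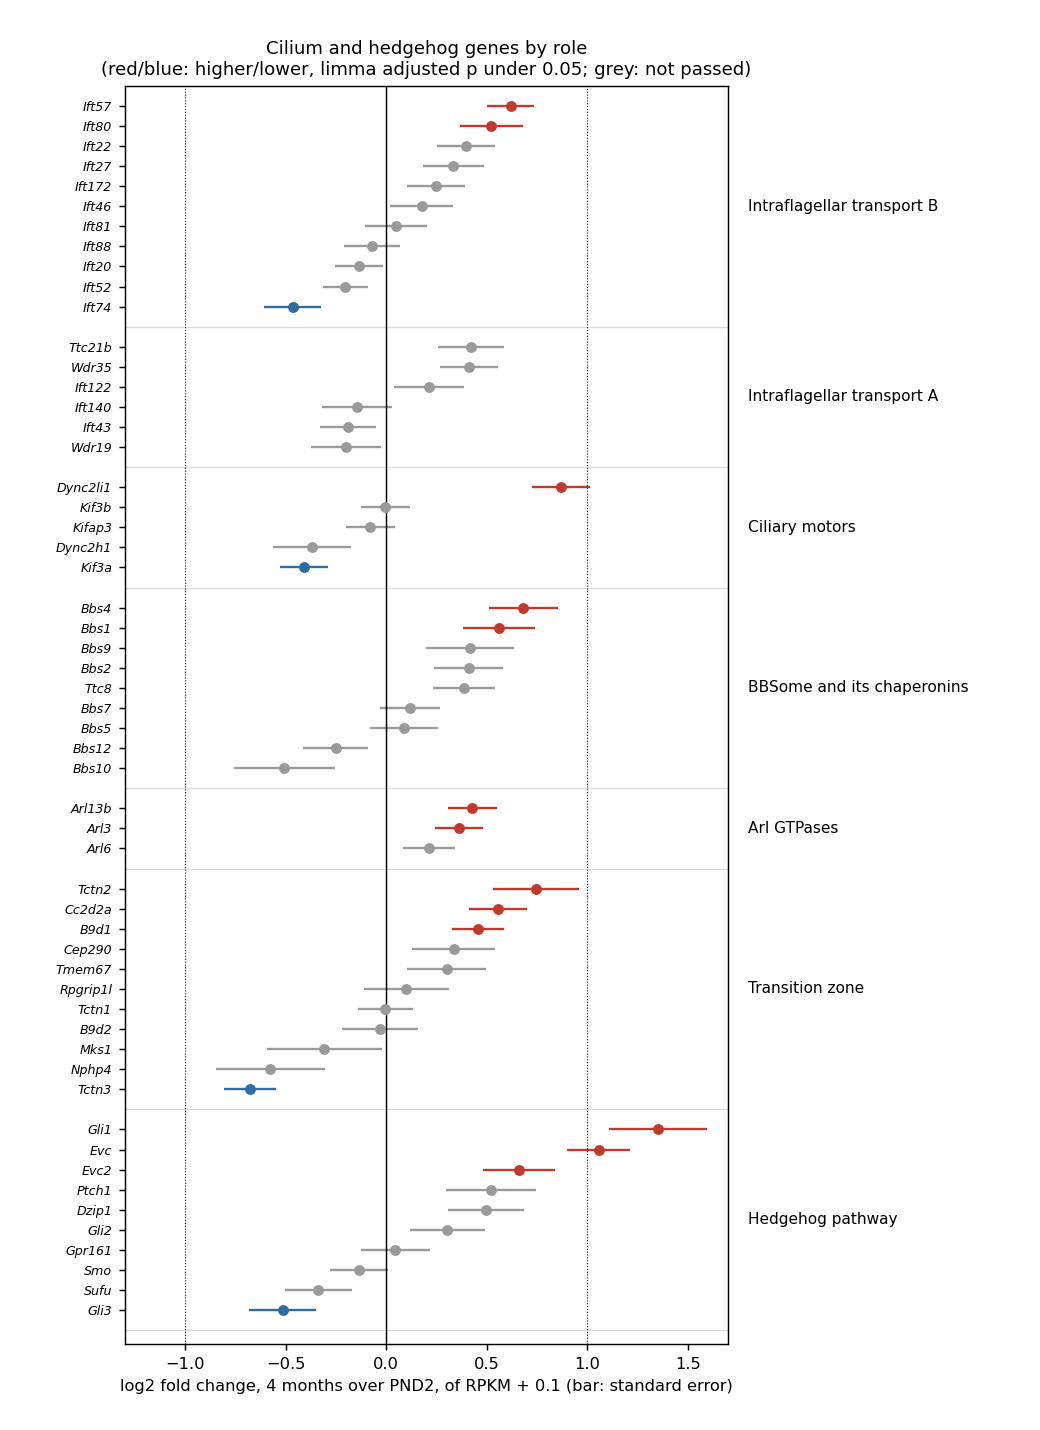
Log2 fold change of each of the 55 members, 4 months over PND2, on the log2(RPKM + 0.1) scale (x axis), grouped by role, with bars for the limma standard error. Red marks the 13 members higher and blue the 4 members lower at 4 months at an adjusted p under 0.05, and the dotted lines mark a 2-fold change, which only Gli1 and Evc passed.

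The 6 libraries differed in depth, in 5′ coverage and in the levels of marker genes. Totals ran from 23810507 to 38994657 reads, and mitochondrial genes took 5.44 to 9.60% of the reads on genes. PND2 library 1 had the lowest level of its age for 41 of the 55 members, and 4 months library 1 the highest of its age for 41 of the 55. PND2 library 1 also had the lowest coverage of 5′ exons. Its median log2 ratio of the first 3 to the last 3 exons over 4807 genes was -1.73, against -1.26 and -1.27 in the other PND2 libraries and -1.66 to -1.56 at 4 months. Summed over fixed marker lists, 8 interstitial markers gave 5968 to 6410 RPKM at PND2 and 7660 to 9677 at 4 months, and 6 endothelial markers gave 380 to 521 and 213 to 228. The interstitial markers did not move one way. Dcn and Lum were called higher at 4 months, Col1a1, Col3a1 and Postn lower, and their median log2 fold change was -0.15. Of other cells, 8 cardiomyocyte markers gave 11487 to 12952 RPKM at PND2 and 4869 to 7643 at 4 months. Of these 8, 4 were called lower and 4 did not pass. The log2 difference of Myl7 ran from -0.52 to 0.34 over the alternative fits. Among the smooth muscle markers that follow, 4 were called higher, and Myocd was not, at -0.08 to 0.15 over the alternative fits. The 5 smooth muscle markers gave 495 to 682 and 2626 to 4095, the 6 macrophage markers 193 to 208 and 710 to 768, and 8 mitotic genes 51.2 to 97.9 and 8.84 to 10.3. The 6 adipocyte markers gave 0.909 to 2.27 RPKM at PND2 and 72.5 to 270 at 4 months, with Ucp1 under the filter. In such bulk tissue, fewer cells of a type and less RNA per cell cannot be told apart, and the part of these shifts in the members' differences was not tested.

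Scaling each library by its median moved the all-gene median log2 fold change from -0.14 to -0.02, and the members' median from 0.21 to 0.33. The split of calls then became 21 higher and 1 lower, in place of 13 and 4. By role it became 4 higher and 0 lower for IFT complex B, 2 and 0 for complex A, 1 and 0 for the motors, 4 and 0 for the BBSome and 5 and 0 for the hedgehog members. With PND2 library 1 and 4 months library 1 both left out, an alternative added after the values were seen, 8 members passed, 5 higher (Ift57, Dync2li1, Arl13b, Gli1 and Evc) and 3 lower (Ift43, Ift74 and Tctn3). The members' median was then 0.09, against -0.19 for all genes. With 1 library left out, 10 members passed without PND2 library 1, 9 without PND2 library 2, 6 without PND2 library 3, 6 without 4 months library 1, 10 without library 2 and 7 without library 3. Gli1, Evc, Dync2li1, Ift57 and Tctn3 passed in all 6 of these fits. The other 12 calls were each lost in at least 1 of them, with the same sign throughout. These fits also have fewer libraries to estimate the spread from.

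**Figure D2:**
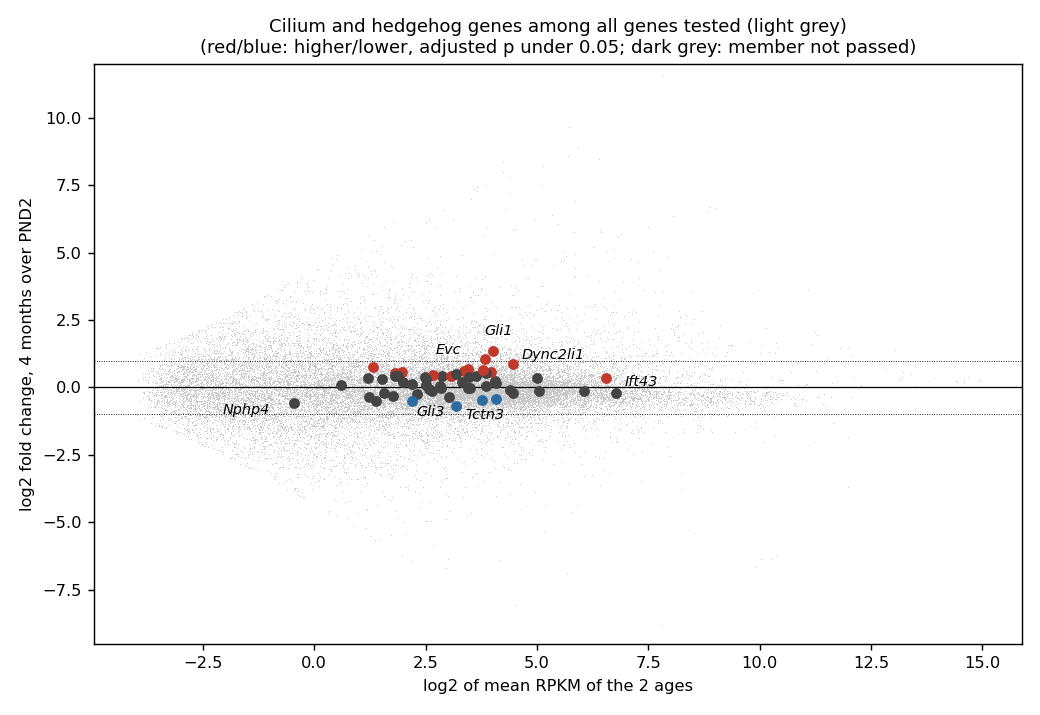
Log2 fold change, 4 months over PND2 (y axis), against the log2 of the mean RPKM of both ages (x axis) for all 25903 genes tested (light grey) and the 55 members (large points: red higher, blue lower, dark grey not passed). Members lie between 0.724 RPKM (Nphp4) and 109 RPKM (Ift43), and all but Gli1 and Evc lie between the dotted lines of a 2-fold change.

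Among the 10 hedgehog members, the transcription factor gene Gli1 was called higher at 4 months, and Gli3 was called lower in the main fit but not in most others. Gli1, which is both a target and an amplifier of the pathway, had 8.49, 7.45 and 11.003 RPKM in PND2 libraries 1 to 3 and 31.5, 17.1 and 21.8 RPKM in the 4 months libraries 1 to 3. Every adult library was above every PND2 library, and the adult libraries differed among themselves by more than the PND2 ones did. The log2 fold change was 1.35 ± 0.24 (SE, limma adjusted p = 0.0053), and it ran from 1.12 to 1.55 with 1 library left out. Gli3, which acts mainly as the repressor of the pathway, had 4.90, 6.29 and 5.09 RPKM at PND2 and 3.55, 3.64 and 4.08 RPKM at 4 months. The ages did not overlap, and Gli3 fell by 0.51 on the log2 scale (SE 0.17, limma adjusted p = 0.048). That call was held in only 1 of the 6 fits without a library, and the adjusted p reached 0.15 without PND2 library 2. Over all 19 other fits tried, Gli3 was called in 7, and not under median scaling or quantile normalization. Gli2, the main activator, had 4.00, 5.66 and 5.57 RPKM at PND2 and 7.09, 5.81 and 5.83 at 4 months, and its log2 difference of 0.30 did not pass (limma adjusted p = 0.25).

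The levels of the Gli genes can also be given within a library as a ratio, which library scaling cannot alter. Gli1 stood at 1.73, 1.18 and 2.16 times Gli3 in the PND2 libraries and at 8.87, 4.70 and 5.36 times Gli3 in the 4 months libraries. The Gli2 to Gli3 ratio was 0.816, 0.899 and 1.09 at PND2 and 2.00, 1.60 and 1.43 at 4 months. Gli3 was thus about level with Gli2 at PND2 and lower than it in each adult library. These ratios were picked after the values were seen, and with 3 libraries against 3 an exact permutation test could not give a p below 0.1, so they are given as descriptions.

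Evc and Evc2 encode transmembrane proteins at the base of the cilium that bind Smoothened and relay its signal to the Gli proteins, and loss of either causes Ellis-van Creveld syndrome, in which heart septal defects are common. Evc had 7.73, 11.05 and 8.96 RPKM at PND2 and 21.0, 17.5 and 19.0 RPKM at 4 months. Its log2 fold change was 1.06 ± 0.16 (limma adjusted p = 0.0023), the lowest adjusted p of the 55 members. Evc2 had 8.04, 12.4 and 11.8 RPKM at PND2 and 17.7, 15.5 and 17.1 RPKM at 4 months. Both genes were higher in every adult library than in any PND2 library. The log2 fold change of Evc2 was 0.66 ± 0.18 (limma adjusted p = 0.026), and the call was held in 4 of the 6 fits without a library, with an adjusted p of 0.078 without 4 months library 3. Within a library, Evc ran at 0.962, 0.891 and 0.758 times Evc2 at PND2 and at 1.19, 1.13 and 1.11 times Evc2 at 4 months.

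Evc and Evc2 are neighbours that are transcribed away from each other. Evc lies on the minus strand at chr5:37289098-37336894 and Evc2 on the plus strand at chr5:37338499-37425055 (mm10), with 1604 bases between them. The 120 bases before each RefSeq start site (GRCm38.p6) lie within or at the edges of this gap and are shown because the genes rose together. They run 5′ to 3′ on the strand of the gene, Evc at chr5:37336882-37337001 (minus strand) and Evc2 at chr5:37338358-37338477 (plus strand).
Evc: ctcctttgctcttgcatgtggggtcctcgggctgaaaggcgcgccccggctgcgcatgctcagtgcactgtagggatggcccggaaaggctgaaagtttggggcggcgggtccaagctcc
Evc2: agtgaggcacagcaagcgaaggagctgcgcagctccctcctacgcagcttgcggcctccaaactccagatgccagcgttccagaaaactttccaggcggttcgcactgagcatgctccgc
A GLI site (GACCACCCA, searched on both strands) was in neither stretch. It was in the window from 250 bases before to 50 bases after the start of 0 of the 49 members with a RefSeq window, and in 0.289% of 27025 genes with one. At so low a share, a count of 0 among 49 members does not set them apart from other genes. The 6 members without a window were Gli1, Ift81, Ift122, Tmem67, Dync2li1 and Ift80, so the Gli1 promoter was not searched. The absence of these letters from the window says nothing of GLI binding to the genes.

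Ptch1, which encodes the receptor and is induced by the pathway, had 10.3, 12.4 and 12.4 RPKM at PND2 and 23.7, 15.4 and 12.8 RPKM at 4 months. The ages did not overlap, but the lowest adult library lay close to the highest PND2 libraries. The log2 difference was 0.52 ± 0.22 and did not pass (limma adjusted p = 0.11). It passed only under median scaling (limma adjusted p = 0.044), and the log2 difference ran from 0.27 to 0.71 with 1 library left out. Smo, which encodes Smoothened, was the most abundant hedgehog member. It had 27.6, 39.7 and 36.6 RPKM at PND2 and 33.0, 29.2 and 31.4 RPKM at 4 months, so the ages overlapped (log2 difference -0.14 ± 0.15, limma adjusted p = 0.51). Dzip1, the basal body gene named above for its link to valve disease, had 5.64, 8.48 and 8.46 RPKM at PND2 and 11.6, 9.61 and 10.3 RPKM at 4 months. Its ages did not overlap, and the log2 difference of 0.50 ± 0.19 missed the threshold (limma adjusted p = 0.080).

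Sufu and Gpr161, which restrain the pathway, gave no call. Sufu, which holds the Gli proteins in the cytoplasm, averaged 9.05 ± 1.2 RPKM in the PND2 libraries (SD, n = 3) and 7.15 ± 1.0 RPKM in the adult ones. Gpr161, a ciliary receptor that raises cyclic AMP and favours Gli3 repressor, had 6.92 ± 0.990 RPKM at PND2 and 7.15 ± 1.11 at 4 months. Of the 10 hedgehog members, 3 rose, 1 fell and 6 did not pass, beside 14.7% of all genes tested called higher and 21.1% lower. The smooth muscle marker sum of the 4 months libraries 1 to 3, at 4095, 2626 and 3099 RPKM, had the same order as Gli1 in those libraries, and its part in the level of Gli1 was not tested.

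**Figure D3:**
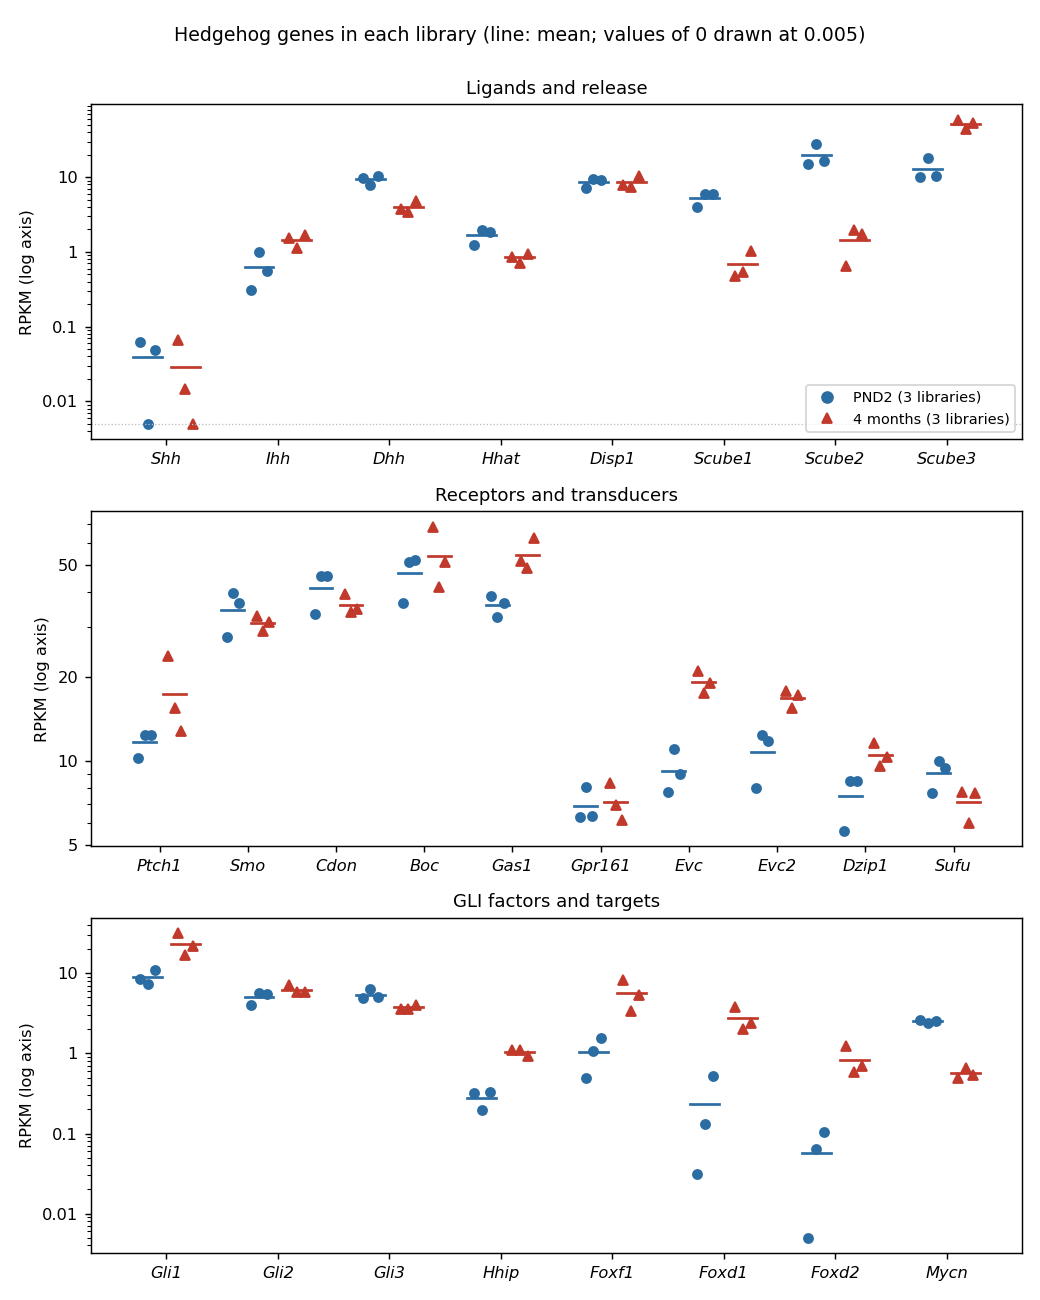
RPKM on a log axis in each PND2 library (blue circles, n = 3) and each 4 months library (red triangles, n = 3) for hedgehog ligands and release factors, receptors and transducers, and Gli factors with target genes; lines are means and values of 0 are drawn at 0.005. Gli1, Evc and Evc2 lie higher at 4 months in every library, while Dhh, Scube1, Scube2, Gli3 and Mycn lie lower.

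The other genes of the pathway were taken from lists chosen for their role. Dhh was the most abundant of the 3 ligand genes at both ages. Dhh had 9.81, 7.79 and 10.4 RPKM at PND2 and 3.78, 3.38 and 4.87 RPKM at 4 months, and it fell by 1.2 on the log2 scale (SE 0.19, limma adjusted p = 0.0031). The endothelial marker sum fell over the same interval, as given above, and its part in the level of Dhh was not tested. Ihh had 0.311, 1.01 and 0.561 RPKM at PND2 and 1.53, 1.14 and 1.68 RPKM at 4 months. Ihh thus did not overlap between the ages but missed the threshold (log2 difference 1.19 ± 0.40, limma adjusted p = 0.055). Shh was at 0.0658 RPKM or less in every library, or at most 7 reads, and was under the filter. Within a library, Gli1 went from 0.961 ± 0.0981 (SD, n = 3) to 5.96 ± 2.07 times the level of Dhh.

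The genes for ligands and their release moved in both directions. Of 8 tested, 1 rose, 4 fell and 3 did not pass, beside 14.7% of all genes tested called higher and 21.1% lower. Under median scaling 2 of the 8 were called higher and 3 lower. Scube1, Scube2 and Scube3 encode related secreted proteins that help free lipid-bound hedgehog from the cell that makes it. Scube3 had 10.2, 18.3 and 10.2 RPKM at PND2 and 58.9, 44.2 and 52.7 RPKM at 4 months (log2 fold change 2.05 ± 0.24, limma adjusted p = 0.00089). Scube2 went the other way, from 14.8, 27.6 and 16.3 RPKM to 0.658, 1.97 and 1.73 RPKM, and Scube1 from 4.04, 5.96 and 5.93 RPKM to 0.478, 0.533 and 1.03 RPKM. The family therefore changed its leading member, with Scube2 the highest in all 3 PND2 libraries and Scube3 far above the others in all 3 adult libraries. Scube2 fell by 3.73 and Scube1 by 2.84 on the log2 scale (limma adjusted p = 0.00075 and 0.00081). Hhat, which adds palmitate to the ligands, fell by 0.90 (limma adjusted p = 0.040), a call held in 1 of 6 fits without a library. Disp1, the ligand exporter, averaged 8.49 ± 1.21 RPKM in the PND2 libraries (SD, n = 3) and 8.55 ± 1.64 RPKM in the adult ones, and Disp2 stayed at 0.314 RPKM or less.

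At the receiving side, Gpc3 encodes a glypican that binds hedgehog away from Patched1. It had 394, 413 and 458 RPKM at PND2 and 132, 114 and 97.9 RPKM at 4 months, and fell by 1.89 on the log2 scale (limma adjusted p = 0.00012). Hhip, a decoy receptor and pathway target, had 0.320, 0.194 and 0.328 RPKM at PND2 and 1.10, 1.10 and 0.917 RPKM at 4 months (log2 fold change 1.60 ± 0.30, limma adjusted p = 0.0061). Hhip was higher in every adult library than in any PND2 library. The co-receptor Gas1 rose by 0.59 on the log2 scale (limma adjusted p = 0.0091). Cdon, Boc and Lrp2, the other co-receptors measured, did not pass, at log2 differences of -0.19, 0.20 and -0.78.

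Of 14 genes known as hedgehog targets in various tissues, 5 rose, 1 fell and 8 did not pass, beside 14.7% of all genes tested called higher and 21.1% lower. These counts were the same in each of the 6 fits without a library. The median log2 fold change was 0.52, against -0.14 over all genes tested, but 0.29 with a constant of 1 added before the logarithm and 0.21 with PND2 library 1 and 4 months library 1 both left out. The 5 were Gli1, Hhip and the forkhead factor genes Foxf1, Foxd1 and Foxd2. Foxf1 had 0.488, 1.06 and 1.54 RPKM at PND2 and 8.19, 3.43 and 5.39 RPKM at 4 months (log2 fold change 2.39 ± 0.45, limma adjusted p = 0.0065). Foxd1 had 0.0312, 0.133 and 0.527 RPKM at PND2 and 3.85, 2.00 and 2.43 RPKM at 4 months (log2 fold change 3.36 ± 0.58, limma adjusted p = 0.0045). All 3 forkhead genes were low at PND2, with 0 to 8 reads for Foxd2 and 3 to 38 for Foxd1, so their fold changes depend on the constant added before the logarithm. Foxd2 had 0, 0.0632 and 0.105 RPKM at PND2 and 1.23, 0.583 and 0.706 RPKM at 4 months, and its log2 fold change of 2.59 went from 0.79 to 4.77 over the other settings. Gli1, Ptch1, Foxf1, Foxd1 and Foxd2 each had their highest value of all 6 libraries in 4 months library 1.

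The gene of this list that fell was Mycn, a driver of proliferation. It had 2.63, 2.43 and 2.56 RPKM at PND2 and 0.488, 0.663 and 0.535 RPKM at 4 months, a fall by 2.00 on the log2 scale (limma adjusted p = 0.00089). Mycn fell beside the mitotic genes, all 8 of which were lower at 4 months, and their part in it was not tested. Ccnd1 (log2 difference 0.04) and Ccnd2 (0.26), which the pathway also induces, did not pass, and neither did Foxf2 (1.17), Foxl1 (0.51), Foxl2 (-0.31), Osr1 (0.07), Osr2 (0.28) or Ptch1 (0.52). Among 22 further regulators of the pathway, 3 were called higher (Spop, Rab23 and Adrbk1) and 3 lower (Btrc, Prkaca and Csnk1a1), none by more than 2-fold. Beside them, 14.7% of all genes tested were called higher and 21.1% lower. Under median scaling the list had 6 calls, all higher. Of the 6 genes named, Spop was called in all 6 fits without a library, Adrbk1 in 4, Rab23 and Prkaca in 2, and Btrc and Csnk1a1 in 1. The list had 0 lower calls without PND2 library 2 or 3 or without 4 months library 1 or 3, and 1 higher call without library 3 of either age.

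The dynein-2 motor, which returns cargo from the tip of the cilium, changed unevenly between its subunits. Dync2li1, the light intermediate chain, had 14.2, 16.7 and 15.3 RPKM at PND2 and 34.2, 25.03 and 26.2 RPKM at 4 months. The ages lay well apart, and the log2 fold change was 0.87 ± 0.14 (limma adjusted p = 0.0035), from 0.73 to 0.96 with 1 library left out. Dync2h1, the heavy chain, had 2.57, 2.67 and 2.70 RPKM at PND2 and 2.33, 1.91 and 1.87 RPKM at 4 months. It was lower in every adult library, but the log2 difference of -0.37 did not pass (limma adjusted p = 0.18). Dync2li1 therefore stood at 5.82 ± 0.372 times Dync2h1 (SD, n = 3) at PND2 and at 13.9 ± 0.788 times at 4 months. The dynein-2 intermediate chain genes outside the set also differed, with Wdr60 higher (log2 fold change 0.54, limma adjusted p = 0.020) and Wdr34 not passing (0.07). Both were looked at after their values were seen.

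Kinesin-2 carries cargo outward as a trimer of Kif3a, Kif3b and Kifap3. Kif3a had 17.8, 20.3 and 19.8 RPKM at PND2 and 12.998, 16.2 and 14.4 RPKM at 4 months, and fell by 0.41 on the log2 scale (SE 0.12, limma adjusted p = 0.033). Kif3a did not overlap between the ages, and the call was held in 2 of 6 fits without a library and lost under median scaling. Its partner Kif3b had 10.7, 12.2 and 10.03 RPKM at PND2 and 11.6, 10.6 and 10.4 RPKM at 4 months, and Kifap3 had 21.5 ± 2.11 RPKM (SD, n = 3) and 20.3 ± 2.16 RPKM. Neither Kif3b nor Kifap3 passed (limma adjusted p = 0.98 and 0.66). The Kif3a to Kif3b ratio was 1.67, 1.67 and 1.97 at PND2 and 1.12, 1.53 and 1.38 at 4 months.

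**Figure D4:**
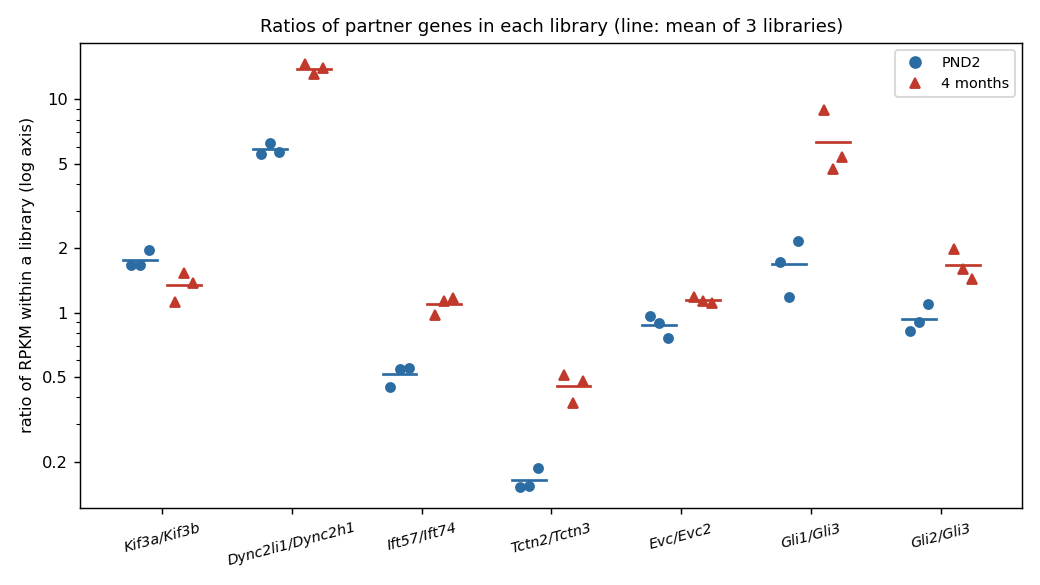
Ratio of the RPKM of pairs of members of one complex or family within each library, on a log axis, for PND2 (blue circles) and 4 months (red triangles), with lines for the mean of 3 libraries. The ages do not overlap for any of the 7 pairs, and the Dync2li1 to Dync2h1 ratio goes from 5.82 to 13.9 while the Kif3a to Kif3b ratio goes from 1.77 to 1.34. The pairs were picked after the values were seen, and no share over other pairs of genes was computed, so the lack of overlap is a description only.

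The 11 members of IFT complex B, which holds and carries cargo toward the tip, gave 2 genes that rose and 1 that fell. Beside them, 14.7% of all genes tested were called higher and 21.1% lower. Ift57, a peripheral subunit, had 7.62, 8.55 and 8.10 RPKM at PND2 and 13.2, 12.4 and 11.7 RPKM at 4 months (log2 fold change 0.62 ± 0.12, limma adjusted p = 0.0060). Ift80, another peripheral subunit, had 3.01, 2.74 and 2.87 RPKM at PND2 and 4.20, 4.17 and 4.13 RPKM at 4 months (log2 fold change 0.52 ± 0.16, limma adjusted p = 0.036). Both were tight within an age and did not overlap between ages. Ift57 passed in all 19 other fits tried, whereas Ift80 kept its call in 1 of the 6 fits without a library (limma adjusted p up to 0.099). Ift74, which binds tubulin together with Ift81, had 17.04, 15.7 and 14.7 RPKM at PND2 and 13.6, 10.9 and 10.003 RPKM at 4 months. Ift74 fell by 0.47 on the log2 scale (SE 0.14, limma adjusted p = 0.039), a call held in 1 of the 6 fits without a library, while its partner Ift81 gave a log2 difference of 0.05 (limma adjusted p = 0.84). The Ift57 to Ift74 ratio was 0.447, 0.545 and 0.551 at PND2 and 0.976, 1.14 and 1.17 at 4 months.

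The other complex B members did not pass. Ift20, which also works at the Golgi, was among the most abundant members averaging 69.5 ± 7.87 RPKM in the PND2 libraries (SD, n = 3) and 63.2 ± 6.68 RPKM in the adult ones. The small GTPase genes Ift22 and Ift27 gave log2 differences of 0.40 and 0.33 (limma adjusted p = 0.068 and 0.13). The core subunit genes Ift46, Ift52 and Ift88 gave 0.18, -0.20 and -0.07, and Ift172, which acts at the tip where transport turns round, gave 0.25. The ages overlapped for Ift88, whose libraries ran from 5.29 to 6.32 RPKM.

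None of the 6 members of IFT complex A, the return complex, passed, beside 35.8% of all genes tested. Ift43 was the most abundant of all 55 members, with 104, 123 and 120 RPKM at PND2 and 121, 87.4 and 97.7 RPKM at 4 months. Its ages overlapped (log2 difference -0.19 ± 0.14, limma adjusted p = 0.33), and it was called lower only with PND2 library 1 and 4 months library 1 both left out (log2 difference -0.39, limma adjusted p = 0.043). The core subunit genes Ift122, Ift140 and Wdr19 gave log2 differences of 0.21, -0.14 and -0.20. The peripheral subunit genes Wdr35 and Ttc21b were each higher in every adult library, by 0.41 and 0.42 on the log2 scale, and missed the threshold (limma adjusted p = 0.060 and 0.084).

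The BBSome, an octamer that moves receptors out of the cilium, had 7 of its genes in the set together with 2 of its chaperonin-like assembly factors. Bbs4 had 7.71, 9.36 and 7.74 RPKM at PND2 and 16.3, 13.02 and 11.02 RPKM at 4 months (log2 fold change 0.68 ± 0.17, limma adjusted p = 0.020). Bbs1 had 3.00, 3.73 and 2.72 RPKM at PND2 and 4.84, 4.75 and 4.41 RPKM at 4 months (log2 fold change 0.56 ± 0.18, limma adjusted p = 0.045). These were the 2 that rose, without overlap between the ages, and the calls were held in 2 and 1 of the 6 fits without a library. Beside them, 14.7% of all genes tested were called higher and 21.1% lower. Bbs2, Bbs9 and Ttc8 gave log2 differences of 0.41, 0.42 and 0.39 that did not pass, and Bbs5 and Bbs7 gave 0.09 and 0.12. The assembly factor genes Bbs10 and Bbs12 were on the other side of 0, at -0.51 and -0.25, and did not pass (limma adjusted p = 0.16 and 0.27). The median over the 9 genes was 0.39, and it was 0.26 without PND2 library 1 and 0.15 without PND2 library 1 and 4 months library 1.

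The 3 Arl GTPase genes were higher in every adult library than in any PND2 library, and 2 of them passed. Beside them, 20.0% of all genes tested were higher without overlap and 14.7% were called higher. Arl13b, which marks the ciliary membrane and activates Arl3, had 7.80, 6.76 and 6.97 RPKM at PND2 and 9.19, 9.77 and 10.1 RPKM at 4 months (log2 fold change 0.43 ± 0.12, limma adjusted p = 0.032). Arl3, which releases lipid-anchored proteins inside the cilium, was the next most abundant member after Ift43. It had 73.6, 83.8 and 89.0 RPKM at PND2 and 118, 94.8 and 104 RPKM at 4 months (log2 fold change 0.36 ± 0.12, limma adjusted p = 0.049). Arl6, which recruits the BBSome to membranes, gave 0.21 and did not pass. Each of the calls for Arl13b and Arl3 was held in 1 of the 6 fits without a library.

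At the transition zone, the 3 tectonic genes went separate ways. Tctn2 had 1.62, 1.89 and 2.04 RPKM at PND2 and 3.26, 2.63 and 3.65 RPKM at 4 months (log2 fold change 0.75 ± 0.21, limma adjusted p = 0.031). Tctn3 had 10.6, 12.3 and 10.9 RPKM at PND2 and 6.40, 6.98 and 7.64 RPKM at 4 months, and fell by 0.68 on the log2 scale (SE 0.13, limma adjusted p = 0.0066). Tctn1 averaged 7.24 ± 0.742 RPKM in the PND2 libraries (SD, n = 3) and 7.20 ± 0.416 RPKM in the adult ones. Tctn3 thus led the family at PND2 and was level with Tctn1 at 4 months, where their libraries overlapped. The call for Tctn3 was held in all 19 other fits tried, whereas that for Tctn2 was held in 1 of the 6 fits without a library. The Tctn2 to Tctn3 ratio was 0.152, 0.153 and 0.187 at PND2 and 0.509, 0.376 and 0.478 at 4 months. Tctn2 is listed in the deposited annotation as a processed transcript, the other 54 members as protein coding.

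The tectonic genes that differed, and Ift57, carry the X-box in their promoters. This inverted repeat is read by RFX factors, some but not all of which drive ciliary genes. The X-box consensus, searched on both strands of the 300 bases around each RefSeq start site (GRCm38.p6), was found in 6 of the 49 members with a window (12.2%) and in 1.75% of 27025 genes. The 6 were B9d2, Bbs1, Ift57, Tctn1, Tctn2 and Tctn3. Of these, Bbs1, Ift57 and Tctn2 rose, Tctn3 fell, and B9d2 and Tctn1 did not pass, so the same motif accompanied calls in both directions. The stretches below are shown to let these motifs be compared. They run 5′ to 3′ on the strand of the gene, with the matches in capitals, Tctn2 at chr5:124598629-124598748 (plus strand), Tctn3 at chr19:40612272-40612391 (minus strand) and Ift57 at chr16:49699174-49699253 (plus strand).
Tctn2: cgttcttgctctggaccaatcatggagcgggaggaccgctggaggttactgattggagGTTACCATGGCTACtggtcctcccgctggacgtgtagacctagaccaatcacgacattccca
Tctn3: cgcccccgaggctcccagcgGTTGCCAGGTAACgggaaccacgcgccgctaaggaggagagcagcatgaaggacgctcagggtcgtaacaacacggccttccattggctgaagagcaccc
Ift57: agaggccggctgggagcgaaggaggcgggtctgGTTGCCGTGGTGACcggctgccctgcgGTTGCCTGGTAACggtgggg
A match is a description of the letters and not of a bound site. Of the genes of the RFX family, Rfx2 rose by 1.14 on the log2 scale (limma adjusted p = 0.013) and Rfx5 by 0.63 (limma adjusted p = 0.028). Rfx1, Rfx3 and Rfx7 did not pass (log2 differences of 0.00, -0.59 and -0.40). The part of any of them in the levels of the members was not tested. The call for Rfx5 was held in 1 of the 6 fits without a library and that for Rfx2 in 5.

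Of the remaining transition zone genes, 2 rose. Cc2d2a had 11.4, 13.2 and 12.9 RPKM at PND2 and 22.2, 17.3 and 16.2 RPKM at 4 months (log2 fold change 0.56 ± 0.14, limma adjusted p = 0.022). B9d1 had 5.20, 5.22 and 5.56 RPKM at PND2 and 7.87, 7.04 and 7.14 RPKM at 4 months (log2 fold change 0.46 ± 0.13, limma adjusted p = 0.031). Both encode proteins of the same barrier complex as the tectonics and were higher in every adult library, and the calls for Cc2d2a and B9d1 were held in 3 and 0 of the 6 fits without a library. Tmem67, Cep290 and Rpgrip1l gave log2 differences of 0.30, 0.34 and 0.10 and did not pass, and neither did Mks1 (-0.31) or B9d2 (-0.03). Nphp4, at 0.730, 1.06 and 0.882 RPKM at PND2 and 0.571, 0.521 and 0.583 RPKM at 4 months, was the least abundant member. Nphp4 was lower in every adult library, but its log2 difference of -0.58 ± 0.27 did not pass (limma adjusted p = 0.14).

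The exon values show whether a difference ran along the gene or rested on a part of it. Of exons with a mean of at least 20 reads, 21 of 21 in Evc, 13 of 13 in Dync2li1 and 10 of 11 in Gli1 were higher in every adult library than in any PND2 library. Evc2 had 14 of 20 such exons, Cc2d2a 22 of 38 and Ift57 6 of 10, and in Evc2 and Ift57 each exon had the higher mean at 4 months. For Ptch1, 22 of 23 exons had the higher mean at 4 months, but only 3 were without overlap. Among the genes that fell, Tctn3 had the lower mean at 4 months in all 13 exons, 6 of them without overlap. Other called members varied, with 5 of 6 exons in Arl3, 12 of 19 in Ift80 and 4 of 9 in Bbs4 higher without overlap. Of Ift74 4 of 20 and of Gli3 1 of 6 were lower without overlap. These genes did not overlap as a whole in the same libraries, so their exons are no separate support.

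Kif3a was less even. Its exons 14 to 19 had log2 ratios of -1.06 to -0.57, whereas the last and longest exon, of 957 bases, had 14.0 RPKM at PND2 and 15.1 at 4 months (log2 ratio 0.11). This last exon was not lower at 4 months although the gene as a whole was, so the size of the fall depends on which part of the Kif3a transcript is read. A difference of 5′ coverage between libraries is given above, and its part in this pattern was not tested. Since 8 members share exonic bases with another gene, from 1.31% of their length in Bbs12 to 25.5% in Tctn1, the levels were also summed over exons that no other gene overlaps. Over such exons Gli1 had a log2 ratio of 1.38, against 1.39 over the whole gene, and Ift57 0.60 against 0.62. None of the 55 members moved by more than 1 SD between libraries.

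**Figure D5:**
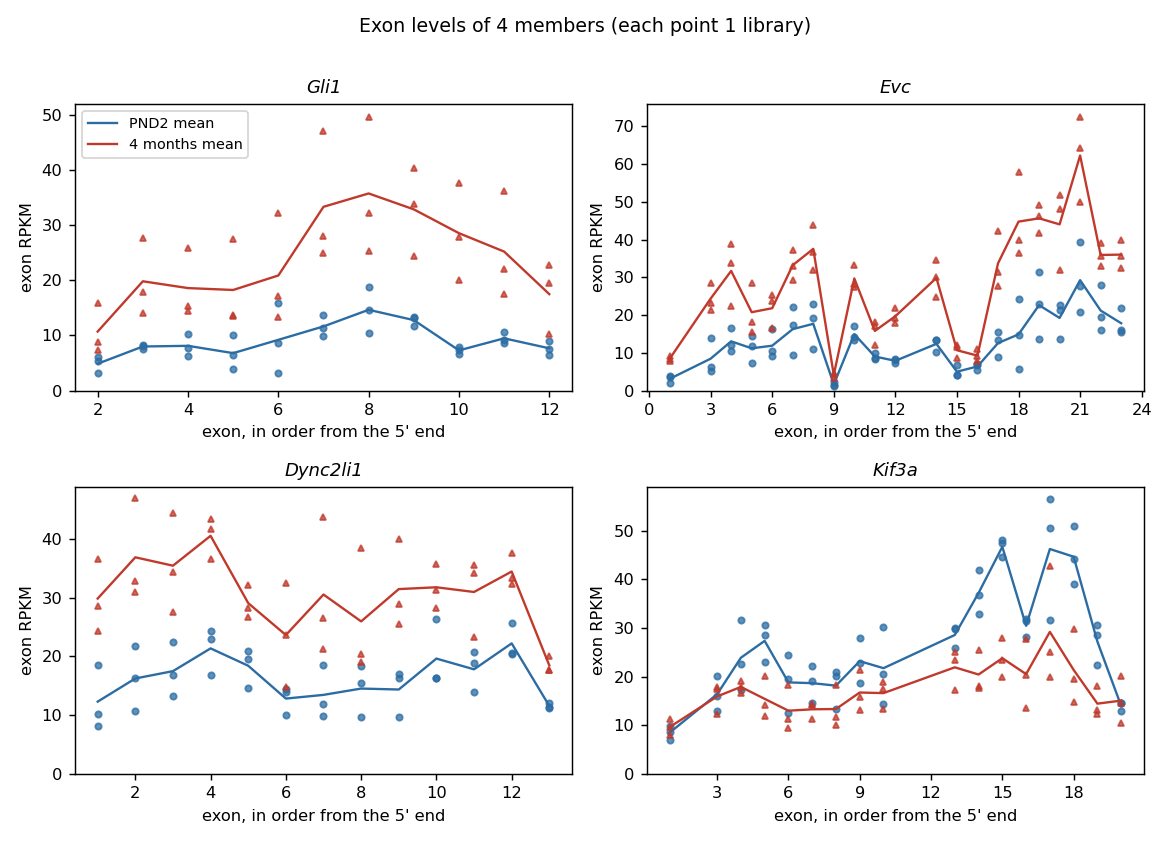
RPKM of each exon with a mean of at least 20 reads, in order from the 5′ end, for Gli1, Evc, Dync2li1 and Kif3a, with 1 point per library (blue circles PND2, red triangles 4 months) and lines for the means of 3 libraries. The adult line runs above the PND2 line along Gli1, Evc and Dync2li1, and below it along most of Kif3a but not in its first and last exons.

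The wider cilium lists put the members in context, beside 14.7% of all genes tested called higher and 21.1% lower. Of 12 other IFT and dynein-2 genes tested, Cluap1 and Wdr60 rose and Hspb11 and Ttc30a1 fell, and under median scaling 4 were called higher and 1 lower. Hspb11 was called in all 6 fits without a library, Wdr60 in 3, and Cluap1 and Ttc30a1 in 1, with 0 higher calls without PND2 library 3, 4 months library 1 or 4 months library 3. Of 26 other transition zone, inversin and BBSome-related genes, 3 rose (Tmem231, Invs and Unc119b) and 5 fell (Rab3ip, Rpgr, Tmem17, Arl2bp and Rab8a), against 3 and 3 under median scaling. Tmem231, Rab3ip, Rpgr and Tmem17 were called in all 6 fits without a library, Unc119b in 3, Arl2bp and Rab8a in 2, and Invs in 0. Without PND2 library 3 or 4 months library 3 the list had 1 higher and 3 lower calls. Tmem231, a partner of the tectonics, went from 3.53 ± 0.916 (SD, n = 3) to 7.29 ± 0.407 RPKM (log2 fold change 1.05, limma adjusted p = 0.0070). The log2 fold changes of Rab3ip, Rpgr and Tmem17 were -1.26, -1.07 and -1.03. Of 15 genes of the basal body and distal appendages, 6 fell, all by less than 2-fold, beside 21.1% of all genes called lower. The other 9 did not pass. Only 1 of these 15 was called lower without 4 months library 3, 2 without PND2 library 2, and 4 without PND2 library 3 or 4 months library 2. The median log2 fold change was 0.04, -0.13 and -0.33 for these 3 lists, against 0.21 for the members.

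Of 7 tested genes for ciliary signalling proteins, 5 rose (Adcy3, Adcy5, Pkd1, Pkd2 and Sstr3) and 1 fell (Adcy6), the last not under median scaling, beside 14.7% and 21.1% of all genes tested. Adcy3 and Adcy5 were called in all 6 fits without a library, Pkd1 in 4, and Pkd2, Sstr3 and Adcy6 in 2. The higher calls numbered 3 without PND2 library 1 or 3 or 4 months library 2 or 3, and 2 without PND2 library 1 and 4 months library 1. Adcy5, an adenylyl cyclase gene, went from 48.3, 57.3 and 53.0 RPKM to 176, 127 and 144 RPKM (log2 fold change 1.48 ± 0.14, limma adjusted p = 0.00035), and Sstr3, a somatostatin receptor gene, rose from 0.223 to 0.711 RPKM on average. Of 9 genes for cilium disassembly, 0 rose and 6 fell, beside the 21.1% of all genes called lower, and 6 or 7 were lower in each fit without a library. The log2 fold changes were -2.48 for Plk1, -2.46 for Nek2, -2.42 for Aurka and -2.29 for Cdc20. These 4 are also regulators of mitosis, and they fell beside the mitotic genes given above. Motile cilium genes stayed low, with 15 of them summing to 11.2 to 13.2 RPKM at PND2 and 11.3 to 15.4 RPKM at 4 months, most of it from Rsph9 and Ccdc39. Of the 10 that could be tested, 0 rose and 2 fell (Tekt1 and Dnah11), and Foxj1, the switch for motile cilia, was at 0.365 RPKM or less.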

How the data were processed

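RNA of pooled aortic valves was sequenced after TRI Reagent extraction and a TruSeq stranded kit. The authors aligned trimmed reads to mm10 with TopHat 2.1.0, counted them on Ensembl release 83 genes and exons with easyRNASeq, and deposited RPKM values (46983 genes, 448141 exons) without the read minimum and floor that the study later applied. Whether counting used strand, and whether totals are reads or pairs, is not given in the sources used here, so genes that overlap are uncertain. Multiplying RPKM by exonic length and library total gave whole reads for 100% of gene values (tolerance 0.01).

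Fold changes and p-values are from limma 3.58.1 (R 4.3.3, eBayes with trend) on log2(RPKM + 0.1), for genes reaching 0.1 RPKM in at least 3 libraries, by age alone. This scale understates the change of low genes. Python 3.11.15, pandas 2.3.3 and matplotlib 3.10.9 made tables and figures. The steps were tested on simulated data with a spread set in advance, not taken from these libraries. Of 67 planted 1.5-fold changes 34.3% were recovered, and of 67 planted 2-fold changes 95.5%. A member that did not pass may therefore still differ. Recovery in these libraries may be lower than in the simulation, so no upper limit on such a difference follows. Members, lists and ratios were chosen with earlier results of these data known, so they are no independent support. Named genes are the 55 members, all genes of the ligand, co-receptor and target lists, and of other lists up to 4 genes with the largest changes past both thresholds; others named were chosen after their values were seen. Alternatives were pseudocounts of 1 and 0.01, no filter or an RPKM of at least 1, no trend, median scaling, quantile normalization, a replicate block, an unequal-variance test on each gene, a floor of 10 reads, voom on recovered reads, protein-coding genes, exons free of overlap, each library left out, and 2 left out together. Sequences are from RefSeq promoter windows (GRCm38.p6), found for 49 members. Dnai1 and Dnai2 of the motile list were not analysed here. A few genes of the wider lists are not reported here and were left out of the lists' counts. Reads are not independent molecules, and depth limits members little, since each had 75 reads or more.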

Additional observations from a re-analysis of the deposited data

How the results depend on the processing

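The 17 called members kept their sign in every alternative fit, but many calls did not hold. With a library left out, 6 to 10 members passed, 4 to 8 higher, 1 to 3 lower, and 1 to 2 past 2-fold. Leaving out PND2 replicate 1 and 4 months replicate 1 together, chosen after seeing the data, gave 8 members, 5 higher, with 1 past 2-fold. Median scaling gave 21 higher and 1 lower. Quantile normalization added 5 higher calls to those of the main fit and lost 3 lower ones, which left 1 lower. A pseudocount of 1 left 1 member past 2-fold. The unequal-variance test on each gene gave 4 members, 3 higher and 1 lower, with 0 past 2-fold. Under it 13.2% of all genes passed, and limma under the main settings called 2 members past 2-fold. Gli1, Evc and Dync2li1 lost their calls under that test only (adjusted p = 0.074, 0.054 and 0.066). A replicate block gave 7 members, 5 higher and 2 lower. The deviations of same-numbered libraries from their age means correlated at 0.044, -0.061 and -0.16, so no pairing by replicate number was seen. With 3 libraries per age these correlations are tied together, so they cannot exclude shared handling. The block moved the count over all genes from 9273 to 7167. The cause of these changes was not tested, beyond the fewer libraries or degrees of freedom of the fits concerned.

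Members that changed sign had log2 differences near 0 and no call. Under median scaling Ift88 was at 0.049, Kif3b at 0.12, Kifap3 at 0.044, B9d2 at 0.092 and Tctn1 at 0.12. Under quantile normalization Kif3b was at 0.059, B9d2 at 0.0401 and Tctn1 at 0.044, and with voom B9d2 was at 0.0017 and Tctn1 at 0.0027. With libraries left out, 1 or 2 together, Ift46 ran from -0.0061 to 0.29, Ift81 from -0.13 to 0.17, Gpr161 from -0.13 to 0.16, Kif3b from -0.0700 to 0.0733, Bbs5 from -0.016 to 0.17, B9d2 from -0.20 to 0.17 and Tctn1 from -0.092 to 0.065.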
